A study of Mus musculus with 18 samples.

Results

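A set of 10 genes of the NRF2 antioxidant pathway were followed across mouse embryonic stem cells given adriamycin or ultraviolet light (UV). The set, out of 19935 genes measured, was chosen by gene name, with earlier results of these data known: Nfe2l2 and its inhibitor Keap1, and the 8 targets Hmox1, Nqo1, Gclc, Gclm, Txnrd1, Srxn1, Gsr and Prdx1. All 10 were measured, by 11 probes naming 1 of them alone, and for Prdx1, which had 2, the probe with the higher mean over all 18 arrays was used. R1E is a mouse embryonic stem cell line, kept here in serum with leukemia inhibitory factor. R1E cells were mock treated, given 0.5 µM adriamycin for 8 hours, or exposed to UV at 25 J/m2 and examined at 8 hours, with n = 4 arrays each. Embryonic stem cells of genotype p53-/- and background 129X1 x 129S1, grown in the same kind of medium, were left untreated or took 0.5 µM adriamycin over 8 hours (n = 3 arrays each). The labels give no strain for R1E and do not say whether the p53-/- cells are 1 clone.

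NRF2, the product of Nfe2l2, is a transcription factor that KEAP1 holds at a low level by handing it to a CUL3 ubiquitin ligase. Oxidants and electrophiles modify cysteines of KEAP1, NRF2 protein then accumulates, pairs with a small MAF protein and binds antioxidant response elements near its targets. Because this switch acts on protein, the messenger RNA of the targets is the usual readout. Adriamycin (doxorubicin) is a quinone that poisons topoisomerase II and can also cycle between redox states to yield superoxide, and UV damages DNA directly and generates oxidants. The question was whether either treatment raised the oxidative stress programme, and whether the response to adriamycin was the same in cells that lack p53.

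Promoters of the members are shown because the antioxidant response element is the sequence through which NRF2 acts. RefSeq promoter windows of build GRCm38.p6, 250 bases before to 50 after each annotated start, were found for 7 of the 10 genes, in 9 windows, since Txnrd1 had several starts. Hmox1, Gclc and Gsr had none. The element core TGACNNNGC, searched on both strands, was in 5 of the 9 windows, 1 for each of 5 genes, against 12.4% of all 32851 windows. With A or G required in front of the core it was in 2 of the 9 windows, against 6.3% of all. The AP-1 motif TGANTCA, which can overlap the core, was in 2 of the 9 windows, those of Srxn1 and Prdx1, against 7.8% of all. Below, capitals mark the core in 3 genes that are described later as rising after both treatments (Srxn1), falling after both (Gclm) and called in opposite directions (Txnrd1), each read 5′ to 3′ on the strand of its gene.
Srxn1, chr2:152105274-152105573, plus strand: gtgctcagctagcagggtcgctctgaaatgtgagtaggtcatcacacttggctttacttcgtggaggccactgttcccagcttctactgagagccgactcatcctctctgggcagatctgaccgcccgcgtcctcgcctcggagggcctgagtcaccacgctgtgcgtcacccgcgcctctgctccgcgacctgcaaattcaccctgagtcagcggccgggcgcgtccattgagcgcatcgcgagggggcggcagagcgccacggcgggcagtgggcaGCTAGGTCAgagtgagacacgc
Gclm, chr3:122245307-122245606, plus strand: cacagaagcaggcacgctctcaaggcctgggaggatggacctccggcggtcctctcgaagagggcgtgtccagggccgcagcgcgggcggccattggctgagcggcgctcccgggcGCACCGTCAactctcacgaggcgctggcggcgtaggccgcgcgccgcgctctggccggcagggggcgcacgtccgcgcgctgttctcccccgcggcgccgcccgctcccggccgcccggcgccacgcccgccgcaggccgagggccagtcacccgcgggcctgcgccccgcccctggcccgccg
Txnrd1, chr10:82858956-82859255, plus strand: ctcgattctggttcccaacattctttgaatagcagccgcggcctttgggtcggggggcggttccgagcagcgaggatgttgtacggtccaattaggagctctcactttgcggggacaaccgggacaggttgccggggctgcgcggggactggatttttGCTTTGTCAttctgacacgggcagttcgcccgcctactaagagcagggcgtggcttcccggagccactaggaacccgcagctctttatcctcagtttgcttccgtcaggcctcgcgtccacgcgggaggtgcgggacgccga
The leftmost base of the core lay at position 28 in Srxn1, -134 in Gclm and -92 in Txnrd1, counting the first base of the annotated start as 0. In Prdx1 the core read TGACTCAGC on the minus strand of the window, at -133, where it overlapped an AP-1 motif at -131, and in Nfe2l2 it read TGACTCCGC at -240. The windows of Keap1 and Nqo1 held no core. A match is a string of letters and not a bound site, and some well-known elements, such as those of Hmox1, lie far upstream of such windows.

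The labelled cell type and treatments were checked first. Of 12 embryonic stem cell markers 11 were measured, and all 11 lay above the median gene in each of the 5 groups. Their average moved with treatment in R1E, from 10.98 to 11.04 in mock arrays to 10.32 to 10.40 after adriamycin and 10.72 to 10.77 after UV, with no overlap. The largest changes with adriamycin were those of Zfp42 (-1.75) and Nanog (-1.12). In p53-/- cells the average was 9.84 to 9.95 untreated and 9.77 to 9.78 treated. The part of these shifts in the results below was not tested. The 6 damage-response genes checked (Mdm2, Ccng1, Fas, Plk2, Zmat3 and Tap1) averaged 7.78 to 7.93 on the deposited log2 intensity scale in mock R1E arrays, 10.05 to 10.15 after adriamycin and 9.52 to 9.59 after UV. In p53-/- cells their average was 7.10 to 7.27 untreated and 7.28 to 7.50 with adriamycin. These 6 genes are known p53 targets, so in cells without p53 they cannot tell whether adriamycin acted. The treatment was thus checked in R1E alone. Markers of fibroblasts, which serve as feeder cells in such cultures, averaged 5.37 to 5.50 over 11 genes in the 12 R1E arrays, with 4 to 6 of the 11 above the median gene. In the 6 p53-/- arrays they averaged 7.07 to 7.38, with 9 of the 11 above the median gene and Lum and Dcn below it. The scales of the sets differ. The array of untreated p53-/- replicate 3 lay farthest from its group, with a median absolute distance of 0.221 from the other arrays of its group, against 0.125 to 0.155 for the other 5 p53-/- arrays and 0.058 to 0.084 for R1E. In such bulk RNA, fewer cells of a kind and less of an RNA per cell cannot be told apart.

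The first comparison asked whether adriamycin raised the programme in R1E cells. Of the 10 genes 5 were higher (Hmox1, Nqo1, Gclc, Txnrd1 and Srxn1), 3 were lower (Keap1, Gclm and Gsr), and Nfe2l2 and Prdx1 did not pass the test at an adjusted p below 0.05. Of all genes, 22.1% were called higher and 25.6% lower. The groups did not overlap for 8 of the 10 genes, as they did not for 45.6% of all genes. The changes were small: the largest rise was 1.42-fold (Gclc), the largest fall 1.65-fold (Gclm), and the median log2 change of the 10 was 0.07, against -0.02 over all genes.

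The second comparison asked the same of UV. Here 4 genes were higher (Hmox1, Nqo1, Gclc and Srxn1) and 3 lower (Gclm, Gsr and Txnrd1), beside 22.6% of all genes called higher and 21.2% lower. Nfe2l2, Keap1 and Prdx1 did not pass. The groups did not overlap for 6 genes, against 40.7% of all genes. Hmox1 had the largest change, 1.71-fold up, and the median log2 change of the 10 was -0.01, against 0.03 over all genes.

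Both counts depended on how the arrays were centred. Subtracting every array's own median moved the log2 changes by a common -0.13 after adriamycin and -0.08 after UV. The counts then became 2 higher (Hmox1 and Gclc) and 5 lower (Nfe2l2, Keap1, Gclm, Gsr and Prdx1) after adriamycin. Of all genes, 16.5% were then called higher and 48.4% lower. After UV 3 were higher (Hmox1, Nqo1 and Srxn1) and 5 lower (Keap1, Gclm, Txnrd1, Gsr and Prdx1), beside 15.6% and 28.5% of all genes. Over all genes the share of calls that were higher went from 46.3% to 25.4% after adriamycin and from 51.6% to 35.3% after UV. With quantile normalization the counts were 5 higher and 2 lower after adriamycin and 4 higher and 2 lower after UV. Of all genes, 21.0% were then called higher and 28.1% lower after adriamycin, and 19.9% and 22.7% after UV. Hmox1 rose and Gclm fell after both treatments under all 3 scalings.

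**Figure D1:**
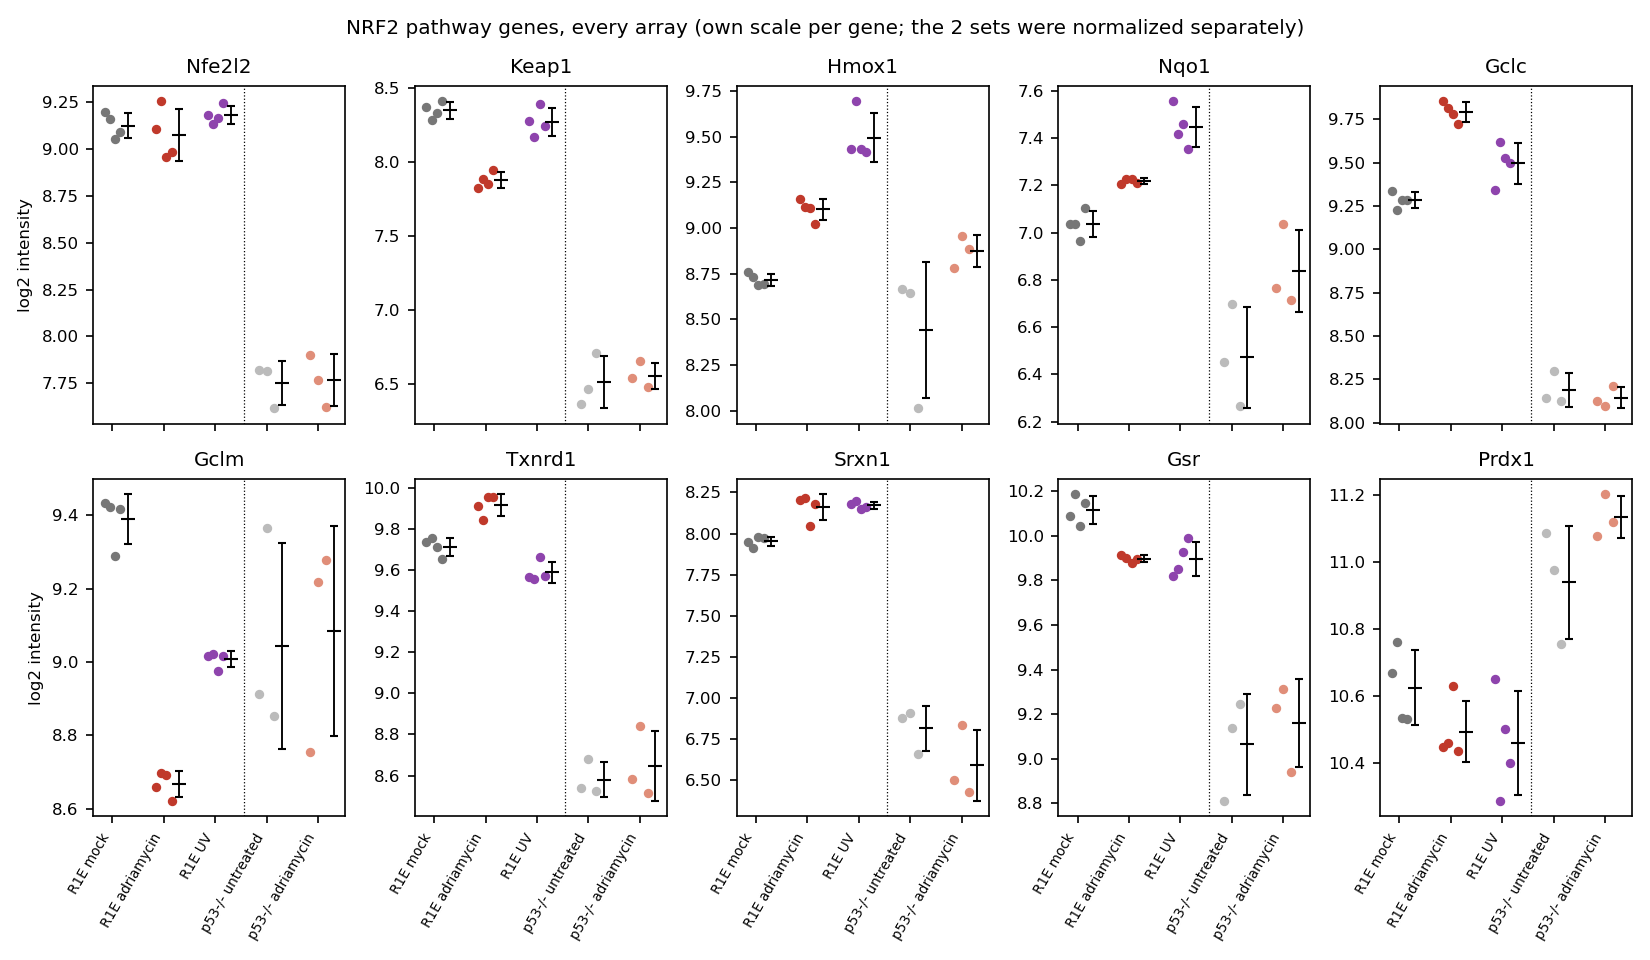
Log2 intensity of each of the 10 genes on every array, by group, with the mean and SD (bars) of n = 4 R1E or n = 3 p53-/- arrays, and a dotted line between the 2 separately normalized sets. Hmox1 is highest after UV, Gclm falls from about 9.39 to 8.67 with adriamycin in R1E, and in p53-/- cells the treated and untreated arrays overlap for 8 of the 10 genes.

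The regulators themselves moved unequally. Nfe2l2 stood at 9.20, 9.16, 9.05 and 9.09 in the 4 mock arrays, at 9.11, 9.26, 8.96 and 8.98 after adriamycin, and at 9.18, 9.14, 9.17 and 9.25 after UV. The 3 groups overlapped, and the log2 change was -0.05 ± 0.06 (SE, 95% interval -0.18 to 0.09) with adriamycin and 0.06 ± 0.06 (-0.08 to 0.19) with UV. With arrays centred on their median the adriamycin change was -0.17 (adjusted p = 0.0312). Adriamycin against UV was at -0.11 (adjusted p = 0.198), or -0.17 (adjusted p = 0.0298) without adriamycin replicate 2. Keap1, the inhibitor, stood at 8.37, 8.29, 8.33 and 8.41 in mock arrays and at 7.83, 7.89, 7.86 and 7.95 after adriamycin. All 4 treated arrays lay below all mock arrays, a log2 change of -0.47 ± 0.05 (limma adjusted p = 1.71e-06). After UV, at 8.28, 8.17, 8.39 and 8.25, Keap1 overlapped the mock arrays (-0.08 ± 0.05, adjusted p = 0.284, or -0.15 and 0.0277 with arrays centred on their median). The direct difference between the treatments was -0.39 ± 0.05 for Keap1 (adjusted p = 2.19e-05), so its level was lower after adriamycin than after UV.

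Hmox1, which encodes the inducible heme oxygenase that turns heme into biliverdin, iron and carbon monoxide, rose most of the 10 after UV and second to Gclc after adriamycin. Its log2 intensity was 8.76, 8.73, 8.69 and 8.69 in mock arrays, 9.16, 9.11, 9.11 and 9.02 after adriamycin, and 9.43, 9.69, 9.43 and 9.42 after UV. The 3 groups did not overlap and ran mock, adriamycin, UV from low to high. The rise was 1.31-fold with adriamycin (log2 change 0.38 ± 0.06, adjusted p = 5.15e-05) and 1.71-fold with UV (0.78 ± 0.06, adjusted p = 2.65e-08). Replicate 2 of the UV group stood above the other UV arrays, and without it the UV change was 0.71.

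Nqo1, a quinone reductase that takes quinones to hydroquinones and is a standard NRF2 readout, kept the same order. Its values were 7.04, 7.04, 6.97 and 7.10 in mock arrays, 7.20, 7.23, 7.23 and 7.21 with adriamycin, and 7.56, 7.42, 7.46 and 7.35 with UV. The rises were 1.13-fold (log2 change 0.18 ± 0.05, adjusted p = 0.00713) and 1.33-fold (0.41 ± 0.05, adjusted p = 5.37e-06). The adriamycin call ended with arrays centred on their median (log2 change 0.06, adjusted p = 0.323), while the UV call held. Levels were lower after adriamycin than after UV for Hmox1 (log2 difference -0.39 ± 0.06, adjusted p = 6.58e-05) and Nqo1 (-0.23 ± 0.05, adjusted p = 0.00177).

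Gclc and Gclm encode the catalytic and modifier subunits of glutamate-cysteine ligase, the rate-limiting enzyme of glutathione synthesis, and they moved in opposite directions. Gclc stood at 9.33, 9.22, 9.28 and 9.29 in mock arrays, 9.85, 9.81, 9.78 and 9.72 after adriamycin, and 9.34, 9.62, 9.52 and 9.49 after UV. Gclm stood at 9.43, 9.42, 9.29 and 9.42 in mock arrays, 8.66, 8.70, 8.69 and 8.62 after adriamycin, and 9.02, 9.02, 8.98 and 9.02 after UV. For each subunit no 2 of the 3 groups overlapped, although the lowest UV array of Gclc was only just above the highest mock array. Gclc rose 1.42-fold with adriamycin (log2 change 0.51 ± 0.06, adjusted p = 1.42e-06) and 1.16-fold with UV (0.21 ± 0.06, adjusted p = 0.00704), the UV call ending with arrays centred on their median (adjusted p = 0.0694). Gclm fell by 0.72 ± 0.05 on the log2 scale with adriamycin (adjusted p = 1.51e-09) and by 0.38 ± 0.05 with UV (adjusted p = 4.64e-06).

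The gap between the subunits was then followed array by array, a measure picked after these values were seen, in which any constant added to an array cancels. The log2 value of Gclc minus Gclm was -0.11 ± 0.08 (SD, n = 4) in mock arrays, 1.12 ± 0.05 with adriamycin and 0.49 ± 0.12 with UV. Its zero has no meaning, as the probes differ. It rose by 1.23 with adriamycin, 0.59 with UV, and was 0.64 higher with adriamycin than with UV, with no overlap of arrays in any of the 3. No test is given, since the separate groups of each subunit already fixed that outcome. In p53-/- cells the gap was -0.85 ± 0.18 (n = 3) untreated and -0.94 ± 0.27 with adriamycin, and the groups overlapped.

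**Figure D2:**
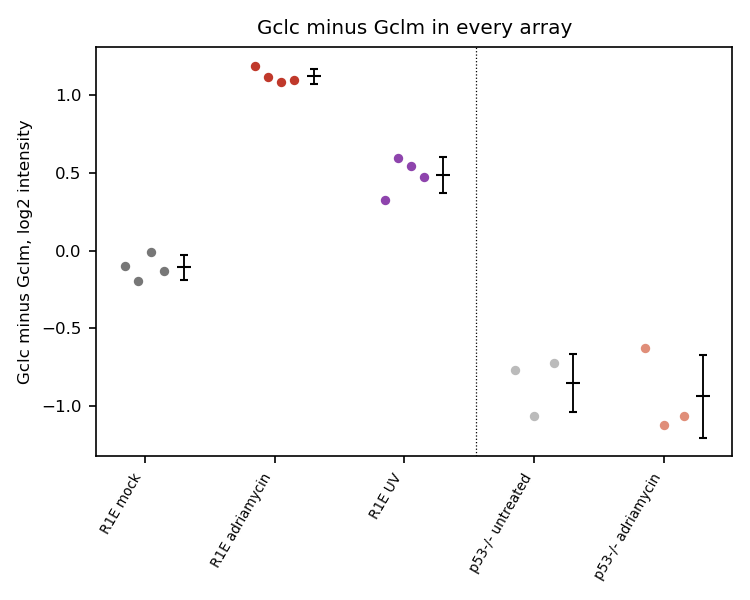
Log2 intensity of Gclc minus that of Gclm on every array by group, with the mean and SD (bars) of n = 4 R1E or n = 3 p53-/- arrays; the height of a single group has no meaning on its own, since 2 probes are set off against each other. The gap is -0.11 in R1E mock arrays, 1.12 with adriamycin and 0.49 with UV, and the p53-/- groups overlap.

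The changes of the thioredoxin branch and glutathione reductase were small. With adriamycin those of Txnrd1, Srxn1 and Gsr were about as large, in either direction, as that of Nqo1. Txnrd1, the cytosolic thioredoxin reductase, stood at 9.74, 9.76, 9.71 and 9.66 in mock arrays, 9.91, 9.85, 9.96 and 9.96 after adriamycin, and 9.57, 9.56, 9.67 and 9.57 after UV. It rose with adriamycin by 0.20 ± 0.05 on the log2 scale (adjusted p = 0.00194, but 0.159 with arrays centred on their median). After UV it was at -0.12 ± 0.05 with overlapping groups. That UV call (adjusted p = 0.0465) ended with quantile normalization (0.2), with the replicate block (0.0703), with only the 2 groups in the fit (0.0615), and on leaving out mock replicate 1, 2 or 3, or UV replicate 1, 2 or 4, one at a time (0.082 to 0.117). The direct difference was 0.33 ± 0.05 higher with adriamycin than with UV (adjusted p = 3.6e-05).

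Srxn1, the sulfiredoxin that restores over-oxidised peroxiredoxins, rose to a like extent with each treatment. It stood at 7.91 to 7.98 in mock arrays, 8.04 to 8.22 after adriamycin and 8.15 to 8.20 after UV. The log2 changes were 0.21 ± 0.05 (adjusted p = 0.00182, and 0.142 with arrays centred on their median) and 0.22 ± 0.05 (adjusted p = 0.00139). The direct difference of -0.01 ± 0.05 had a 95% interval of -0.12 to 0.09. Gsr, which regenerates reduced glutathione with NADPH, fell from 10.05 to 10.19 in mock arrays to 9.88 to 9.91 with adriamycin and 9.82 to 9.99 with UV. Both log2 changes were -0.22 ± 0.05 (adjusted p = 0.00165 and 0.00203), the adriamycin call ending with quantile normalization (-0.12, adjusted p = 0.0675).

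Prdx1, an abundant peroxiredoxin that destroys hydrogen peroxide, did not pass either test. It ranged from 10.53 to 10.76 in mock arrays, 10.43 to 10.63 with adriamycin and 10.29 to 10.65 with UV, and all 3 groups overlapped. The log2 changes were -0.13 ± 0.08 (adjusted p = 0.188) and -0.17 ± 0.08 (adjusted p = 0.0976). Its other probe gave -0.08 ± 0.08 and -0.15 ± 0.08. With arrays centred on their median both changes of the probe used were called lower, at -0.26 (adjusted p = 0.0105) and -0.24 (adjusted p = 0.0201). Without UV replicate 1 the UV change was also called, at -0.23 (adjusted p = 0.0203).

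**Figure D3:**
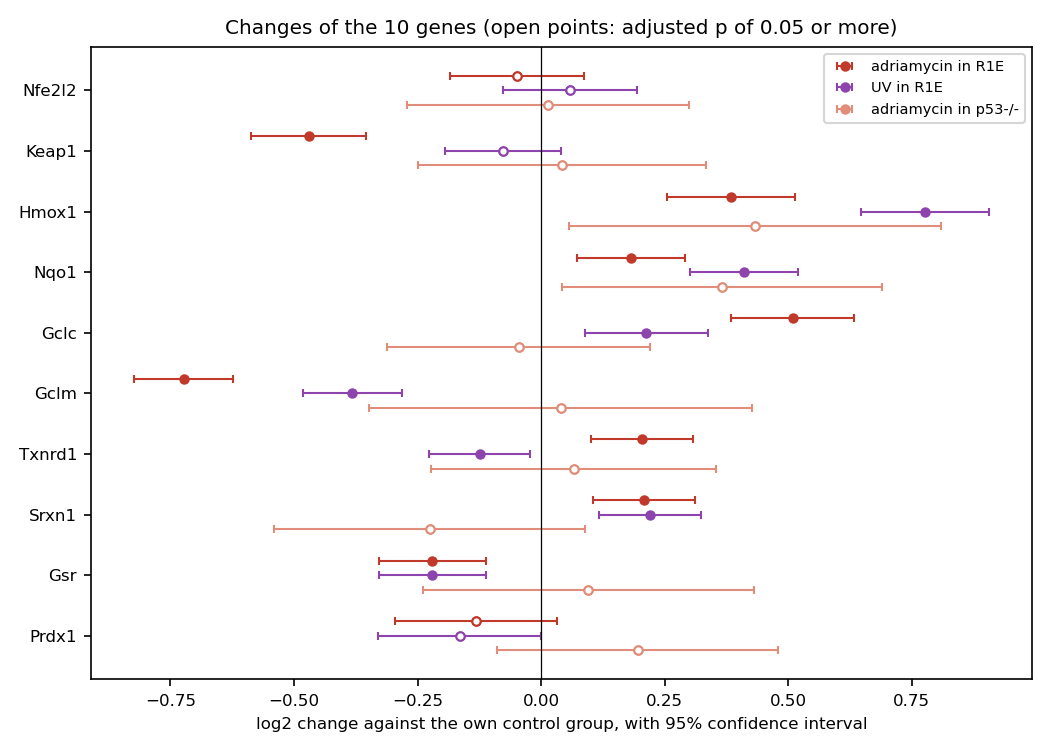
Log2 change of each gene against its own control group with its 95% confidence interval, for adriamycin and UV in R1E cells (n = 4 arrays a group) and adriamycin in p53-/- cells (n = 3); open points have an adjusted p of 0.05 or more. R1E changes lie between -0.72 and 0.78, and all 10 p53-/- points are open, with wider intervals.

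**Figure D4:**
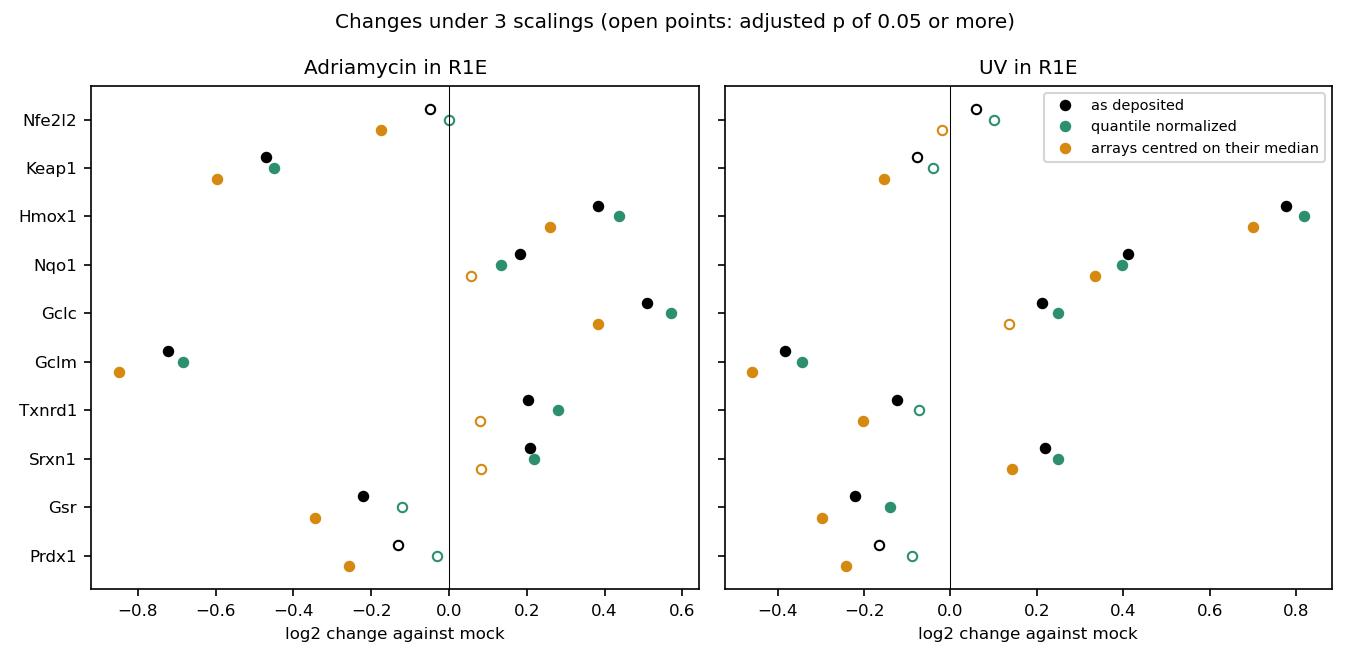
Log2 change of each gene after adriamycin (left) and UV (right) in R1E cells with values as deposited, quantile normalized, or with arrays centred on their median; open points have an adjusted p of 0.05 or more. Hmox1 stays right of 0 and Gclm left of 0 with filled points under all 3, while Nqo1, Txnrd1 and Srxn1 after adriamycin turn to open points when arrays are centred.

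Set directly against each other, the treatments differed for 6 of the 10 genes. Gclc and Txnrd1 were higher after adriamycin, and Keap1, Hmox1, Nqo1 and Gclm were higher after UV, beside 19.8% of all genes called higher and 22.2% lower after adriamycin. The difference was 0.30 ± 0.06 for Gclc and -0.34 ± 0.05 for Gclm. The 2 treatments share no arrays in this contrast, whereas their changes against mock share the 4 mock arrays.

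In p53-/- cells none of the 10 genes was called after adriamycin (limma, n = 3 against 3), beside 0.015% of all genes called higher and 0.0803% lower. At an unadjusted p below 0.05 there were 2, Hmox1 and Nqo1, beside 11.6% of all genes, and the fit with array weights also called 0 of the 10. Hmox1 stood at 8.67, 8.64 and 8.01 untreated and at 8.78, 8.96 and 8.89 with adriamycin, so that the groups did not overlap. The log2 change was 0.43 ± 0.17 (95% interval 0.06 to 0.81, adjusted p = 0.363). The untreated array at 8.01 was replicate 3, the one that lay farthest from its group, and without it the change was 0.22 ± 0.12 (adjusted p = 0.313). Nqo1 stood at 6.45, 6.70 and 6.27 untreated and at 6.76, 7.03 and 6.71 treated, again without overlap, a change of 0.37 ± 0.15 (0.04 to 0.69, adjusted p = 0.373), or 0.26 ± 0.14 without that array. These 2 were the members without overlap, against 17.5% of all genes.

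The other 8 genes overlapped between p53-/- groups. Gclc changed by -0.05 ± 0.12 (95% interval -0.31 to 0.22), Gclm by 0.04 ± 0.18 (-0.35 to 0.43) and Keap1 by 0.04 ± 0.13 (-0.25 to 0.33). Srxn1 was at -0.23 ± 0.14 and Prdx1 at 0.19 ± 0.13, with Nfe2l2, Txnrd1 and Gsr between 0.01 and 0.10. The SE of a member's change was 0.12 to 0.18 here against 0.05 to 0.08 in R1E. Rises of the size seen for Nqo1, Txnrd1 or Srxn1 in R1E were thus not detectable in this set. Larger changes could be missed too. The transferase genes Gstt3, at 0.66 ± 0.13, and Gstm1, at 0.88 ± 0.23, were not called here (limma adjusted p = 0.107 and 0.203). The lack of calls alone therefore does not tell whether a member changed as it did in R1E. That question is put by the direct comparison of the changes below, in which Gclc, Gclm and Keap1 differed. The level of the fibroblast markers, 7.29 to 7.38 untreated and 7.07 to 7.36 treated, was given above beside that of R1E arrays, and its part in these results was not tested.

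The adriamycin changes of the 2 lines were then compared, each with the spread of its own set. Of the 10 genes 3 differed, beside 10.4% of all genes with a higher and 11.4% with a lower change in R1E. Gclc rose more in R1E, by 0.55 ± 0.14 on the log2 scale (adjusted p = 0.00598). Gclm and Keap1 had lower changes in R1E, by -0.76 ± 0.18 (adjusted p = 0.00801) and -0.51 ± 0.14 (adjusted p = 0.0168). The Keap1 difference did not pass without untreated replicate 1 or 2 or without treated replicate 1 or 2 of the p53-/- cells, with adjusted p between 0.0543 and 0.0747. Srxn1, at 0.43 ± 0.15, missed the threshold (adjusted p = 0.0563) and passed it with quantile normalization (adjusted p = 0.0152), dim genes left out (0.0459), array weights, the replicate block or a shared spread. It also passed without R1E adriamycin replicate 3 (0.0378), p53-/- untreated replicate 3 (0.0187) or p53-/- adriamycin replicate 2 (0.0274). For Hmox1 the difference was -0.05 ± 0.18, with a 95% interval of -0.44 to 0.34, and for Nqo1 -0.18 ± 0.16 (-0.52 to 0.15). The lines differ in genotype, array set and software at once, and these cannot be told apart here.

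A list of 136 other redox genes in 9 groups, chosen with earlier results of these data known, placed the members in their pathway, and 124 were measured. After adriamycin in R1E 36 were higher (29.0%) and 50 lower (40.3%), and after UV 38 higher (30.6%) and 30 lower (24.2%), beside the shares of all genes given above. With arrays centred on their median these became 33 and 70, beside 16.5% of all genes higher and 48.4% lower, and 30 and 44, beside 15.6% and 28.5%. The median log2 change over the 124 was -0.06 after adriamycin and -0.01 after UV, against -0.02 and 0.03 over all genes.

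Among 18 partners and regulators of NRF2, 2 were higher and 10 lower after adriamycin, and 3 higher and 8 lower after UV, with medians of -0.21 and -0.16. Of all genes, 22.1% were called higher and 25.6% lower after adriamycin, and 22.6% and 21.2% after UV. Centring the arrays on their median made the lower counts of the list 14 after adriamycin and 13 after UV, beside 48.4% and 28.5% of all genes. The small MAF gene Mafk, a binding partner of NRF2, rose 1.94-fold with adriamycin (log2 change 0.95 ± 0.08, adjusted p = 4.5e-08) and 1.85-fold with UV. Its relative Maff had a log2 change of -0.63 with adriamycin, and Trim16 of -0.70. After UV the largest falls were in Btrc, a ubiquitin ligase subunit that also marks NRF2 for destruction (-0.82), and the kinase gene Fyn (-0.80). Cul3, the scaffold of the KEAP1 ligase, and Bach1, a repressor at the same elements, were looked up after their values were seen. Cul3 was at -0.51 ± 0.05 with adriamycin and at -0.63 with UV. Bach1 was at -0.49 ± 0.06 with adriamycin, but at -0.08 ± 0.06 with UV, where it was not called (limma adjusted p = 0.278) and the groups overlapped.

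The largest rises on the list were those of Gpx3 and Ephx1. Gpx3, a secreted glutathione peroxidase, stood at 7.37 to 7.51 in mock arrays, 9.98 to 10.28 after adriamycin and 9.75 to 9.92 after UV. It rose 6.63-fold (log2 change 2.73 ± 0.06, adjusted p = 9.14e-15) and 5.43-fold (2.44 ± 0.06). In p53-/- cells its change was 0.05 ± 0.12, and the difference between the lines was 2.68 ± 0.14 (adjusted p = 2.38e-10). Ephx1, the microsomal epoxide hydrolase and itself a known NRF2 target, rose 5.57-fold with adriamycin and 3.35-fold with UV. Its change in p53-/- cells was 0.08 ± 0.14, and the lines differed by 2.39 ± 0.15 (adjusted p = 1.47e-08).

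The list of 13 superoxide and peroxide genes also held Ccs and the metallothionein genes Mt1 and Mt2, which do not encode such enzymes. Apart from Gpx3, its genes were lower or not called after adriamycin. Of the 13, 7 were lower, including Sod2, the mitochondrial superoxide dismutase, at -0.66. Mt1 at -0.21 and Mt2 at -0.84 were among the 7. Of the 13, 11 were called lower after adriamycin once arrays were centred on their median, beside 48.4% of all genes. After UV 2 were lower and 2 higher, the latter being Gpx3 and Gpx1 (0.27). Of 6 measured p53-linked antioxidant genes 4 were higher and 2 lower with adriamycin, and 5 higher and 1 lower with UV, with medians of 0.76 and 0.64. Beside the counts of both lists, 22.1% of all genes were called higher and 25.6% lower with adriamycin, and 22.6% and 21.2% with UV. Aldh4a1, a mitochondrial proline-pathway dehydrogenase, rose 3.20-fold with adriamycin and 2.63-fold with UV, Trp53inp1 rose 2.36-fold and 2.10-fold, and the stress gene Sesn2 rose 1.87-fold and 1.90-fold. These genes were listed for their known link to p53 in data already seen, so their direction is not independent evidence.

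**Figure D5:**
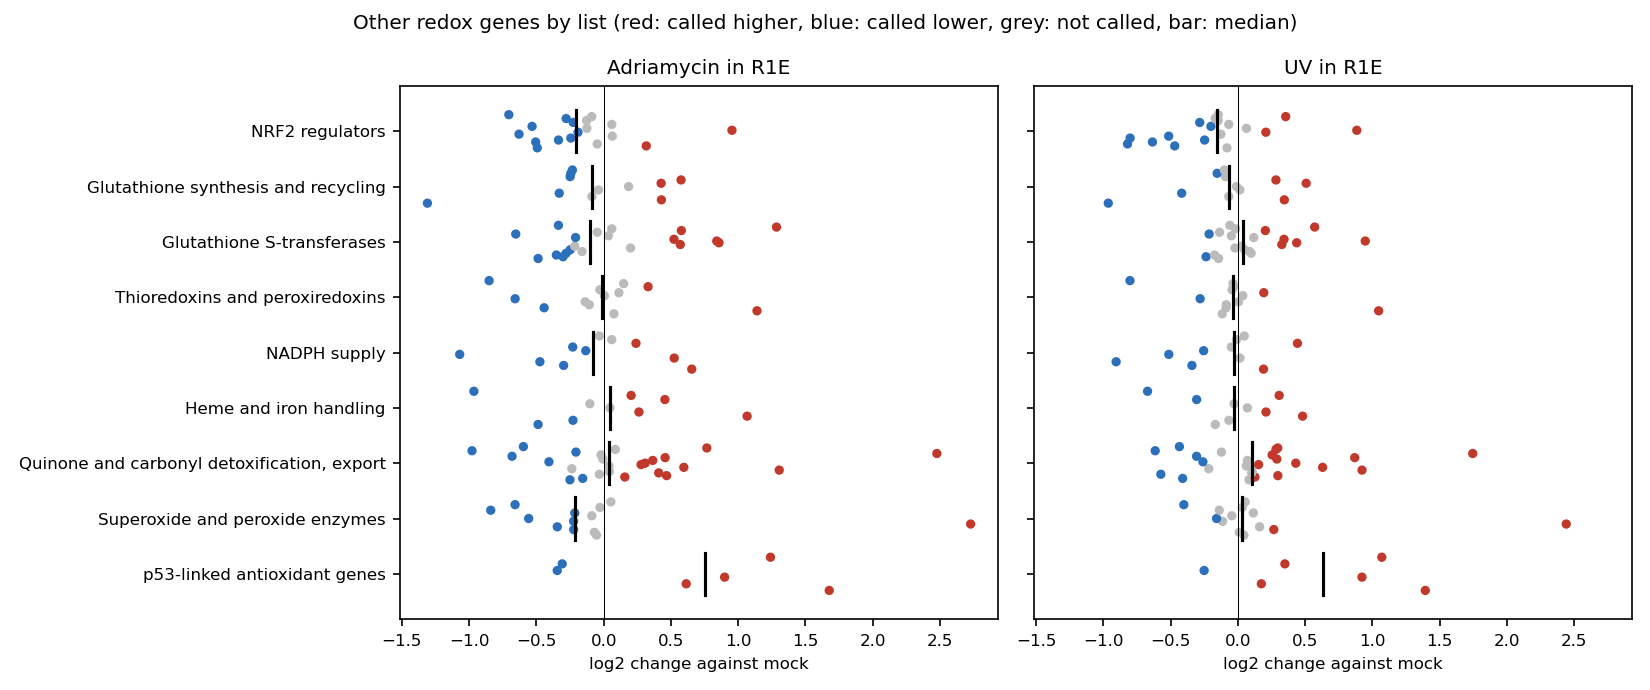
Log2 change against mock of each of 124 other redox genes in R1E cells after adriamycin (left) and UV (right), in 9 lists, with called genes in red (higher) or blue (lower) and the list median as a bar. Most lists spread to both sides of 0; Gpx3 at 2.73 and 2.44 and Ephx1 at 2.48 and 1.75 lie farthest to the right.

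Glutathione genes followed no single direction. Beside the counts below, 22.1% of all genes were called higher and 25.6% lower with adriamycin, and 22.6% and 21.2% with UV. Of 11 synthesis and recycling genes 3 were higher and 5 lower with adriamycin, and 3 higher and 3 lower with UV. Gss, which completes glutathione after glutamate-cysteine ligase, rose 1.49-fold with adriamycin (log2 change 0.58 ± 0.06). Chac1, which breaks glutathione down, was at -1.31 ± 0.09 with adriamycin and -0.96 with UV, and Chac2, of the same family, rose 1.35-fold with adriamycin. Of 20 glutathione S-transferases 6 were higher and 8 lower with adriamycin, and 6 higher and 2 lower with UV. Mgst2 rose 2.44-fold and 1.49-fold, Gsto1 1.79-fold and 1.93-fold, and Gstm7 1.81-fold and 1.35-fold. Gstm genes have close paralogs, so a probe can read several of them.

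Of 12 other thioredoxin and peroxiredoxin genes 2 were higher and 3 lower with adriamycin, and 2 higher and 2 lower with UV. These are 16.7% and 25.0%, and 16.7% and 16.7%, near the shares of all genes. Those shares were 22.1% higher and 25.6% lower with adriamycin, and 22.6% and 21.2% with UV, and stand beside the lists that follow too. Msrb1, a methionine sulfoxide reductase, rose 2.20-fold and 2.07-fold, while Txnrd3 was at -0.85 and -0.80 and Prdx4 at -0.66 and -0.28. Among 9 heme and iron genes 4 were higher and 3 lower with adriamycin and 3 higher and 2 lower with UV. Fech, which puts iron into protoporphyrin to form the heme that Hmox1 degrades, rose 2.09-fold and 1.40-fold, and the transferrin receptor gene Tfrc was at -0.96 and -0.67. Among 10 NADPH-supplying genes 3 were higher and 5 lower with adriamycin, and 2 higher and 4 lower with UV. Idh1 rose 1.57-fold with adriamycin, the malic enzyme gene Me1 was at -0.90 with UV, and Mthfd2 was at -1.07 and -0.51. Of 25 detoxification and export genes 11 were higher and 7 lower with adriamycin, and 12 higher and 6 lower with UV. Beside Ephx1, Akr1b10 rose 2.47-fold and 1.90-fold, Cbr3 rose 1.83-fold with UV, and Nqo2, a relative of Nqo1, was at -0.98 with adriamycin.

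None of the 124 genes was called after adriamycin in p53-/- cells (limma), 14 (11.3%) having an unadjusted p below 0.05, beside 11.6% of all genes. The median change was 0.09, against 0.06 over all genes, and with arrays centred on their median it was -0.0023, against -0.03.

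By Pearson correlation over the 12 R1E arrays, the genes most like the 3 members that changed most were named as a description, since all share the same 3 groups of arrays. Hmox1 went with Nefh (r = 0.981), Sp6 (0.977) and Ttll3 (0.976), Gclm with Wdr75 (0.992), Arhgef2 (0.990) and Rad21 (0.989), and Gclc with Inpp5d (0.986), Snx19 (0.986) and Zcchc24 (0.984). None of these 9 genes was a member or on the list of 136.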

How the data were processed

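Total RNA was labelled for whole-transcript Affymetrix arrays, and the authors deposited log2 intensities. Per the submitters' processing notes, Affymetrix Expression Console 1.1 gave the R1E values and RMA in Partek 6.4 the p53-/- values; the sources used here do not name the algorithm run in the first or the array's genome build. Of 28815 probes with values on all arrays, 21780 named 1 gene, and the brightest per gene was kept. Array medians were 5.48 to 5.61 (R1E) and 5.30 to 5.45 (p53-/-).

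The members, gene lists and tests were chosen with earlier results of these data known. Changes (± moderated SE) came from limma 3.58.1 in R 4.3.3, 1 fit per set with no filter, with Benjamini-Hochberg adjustment over all 19935 genes and a call below 0.05. The difference between lines used each set's own variance and Welch-Satterthwaite degrees of freedom. Named genes were all members, up to 3 called genes of largest change per list and comparison, and the 3 genes most like each of 3 members. The search for the last left out clone and prediction names and olfactory, vomeronasal, histone and small RNA genes. Scripts were tested on simulated data. Nothing in the labels says that the arrays are separate cultures, so the spread behind the p-values may be technical. The number of arrays limits precision, and no batch is labelled. Alternatives were quantile normalization, centring, a filter on dim genes, the mean of probes, a trended robust prior, array weights, a replicate block, fewer groups in the fit, a shared spread, and leaving out each array.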

Additional observations from a re-analysis of the deposited data

Results flagged for a closer look

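Of 30 gene and group combinations with 4 arrays, 5 held an array far from the other 3 by Dixon's criterion at 95%, where chance alone marks about 1 in 20. These were Hmox1 in UV replicate 2, at 9.69 on the log2 intensity scale, Gclm in mock replicate 3, at 9.29, Gclm in UV replicate 3, at 8.98, Txnrd1 in UV replicate 3, at 9.67, and Prdx1 in adriamycin replicate 3, at 10.63. Without that array each call stayed on its side of the threshold: Hmox1 after UV was at 0.71, Gclm after adriamycin at -0.76 and after UV at -0.42 without the mock array and -0.37 without the UV array, Txnrd1 after UV at -0.15, and Prdx1 after adriamycin at -0.18 (adjusted p = 0.0846).

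For 3 genes the adriamycin change differed between the lines by the test of the difference. It was lower in R1E than in p53-/- cells by -0.76 for Gclm and -0.51 for Keap1, and higher by 0.55 for Gclc. Line, genotype and array set cannot be told apart in these values.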

How the results depend on the processing

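The number of members called stayed within 1.5 times its value under every alternative run: 7 or 8 of 10 for adriamycin in R1E, 6 to 8 for UV, 6 or 7 for the direct comparison, 0 for p53-/- cells and 2 to 4 for the difference between the lines. With each array left out in turn the counts ranged from 8 to 8, 6 to 7, 6 to 7, 0 to 0 and 2 to 4. No called change of a member reversed its sign. Over all genes the calls in p53-/- cells moved most, from 19 to 1438 with array weights, 442 without untreated replicate 3, 5 with the replicate block and between 0 and 6 without any other 1 array, while the cause was not tested. With arrays centred on their median the share of calls that were higher was 34.7% in place of 47.2% for adriamycin against UV, and 4.17% in place of 15.8% in p53-/- cells. With arrays centred on their median the list medians turned negative for heme and iron genes (-0.08) and detoxification genes (-0.08) after adriamycin. After UV they did so for transferases (-0.04) and peroxide enzymes (-0.04). The median over all genes was then -0.14 after adriamycin and -0.05 after UV, so the sign alone does not set these lists apart. In p53-/- cells list medians turned negative for NRF2 regulators (-0.09), thioredoxins (-0.03), heme and iron genes (-0.02) and peroxide enzymes (-0.06), against -0.03 over all genes. Counts of lower genes also moved, from 2 to 4 after UV for transferases (4 with quantile normalization too), thioredoxins, and heme and iron genes, and from 3 to 5 after adriamycin for thioredoxins, while the higher counts of thioredoxins and NADPH genes after UV went from 2 to 1. Centring also took the share of all genes called lower from 21.2% to 28.5% after UV and from 25.6% to 48.4% after adriamycin. The share called higher after UV went from 22.6% to 15.6%. With quantile normalization 22.7% of all genes were lower after UV. With quantile normalization medians turned positive for thioredoxins after adriamycin (0.00083) and, after UV, for thioredoxins (0.00046), NADPH genes (0.02), heme and iron genes (0.0016) and all 124 (0.0086), and negative for NRF2 regulators in p53-/- cells (-0.06). Over all genes the median was then -0.03 after adriamycin, -0.0051 after UV and 0.0067 in p53-/- cells.

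The replicate numbers of the titles were checked for pairing. Same-numbered R1E arrays had deviations from their group means correlated between -0.14 and 0.16, and p53-/- arrays between -0.10 and 0.19. Arrays correlated best with their own number in 6 of 24 and 4 of 6 cases. With so few arrays a group, this check cannot decide whether same-numbered samples were paired, and the main fits used no block. With the replicate block the counts of members called were 8, 6, 6, 0 and 4 in the order above. Signal limits little here, since all 10 genes passed the filter on dim genes in both sets.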

Other observations

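The difference of adriamycin effects between the lines also covered the other redox genes, of which 20 had a higher and 31 a lower change in R1E, out of 124 (16.1% and 25.0%, beside 10.4% and 11.4% of all genes). Beside Gpx3 and Ephx1, the change was higher in R1E for Aldh4a1 (log2 difference 1.65 ± 0.16 SE), Mgst2 (1.15 ± 0.16), Gsto1 (1.096 ± 0.16) and Msrb1 (1.08 ± 0.17). It was lower in R1E for Txnrd3 (-1.24 ± 0.16), Nqo2 (-1.16 ± 0.20), Gstm1 (-1.15 ± 0.24), the transferrin receptor gene Tfrc (-1.14 ± 0.15) and Mthfd2 (-1.08 ± 0.16). All of these passed an adjusted p below 0.05, and the set, tool and cell line differ along with genotype. For Gstm1 the change was -0.28 in R1E and 0.88 in p53-/- cells, the latter not called (limma adjusted p = 0.203). Its untreated p53-/- arrays ranged from 6.02 to 7.09.

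Among genes that differed between the treatments in R1E, Bach2, a repressor at antioxidant response elements, was 1.72-fold higher after adriamycin than after UV, and Tigar, which lowers oxidants by turning glucose to the pentose phosphate pathway, was lower after adriamycin by -0.66 on the log2 scale (adjusted p = 1.49e-07).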
